A study of Mus musculus with 12 samples.

Results

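The genes described here were 9 members of the fibroblast growth factor (Fgf) family, *Fgf3*, *Fgf7*, *Fgf8*, *Fgf9*, *Fgf10*, *Fgf13*, *Fgf15*, *Fgf17* and *Fgf18*, chosen by name from the 23420 genes listed in each count table. The tables list 22 Fgf genes in all, and the other 13 are given below as part of the pathway. The libraries, 1 per embryo, were made from the RNA of entire mouse embryos collected at E12.5, in 4 groups of 3. In the *Carm1* line, on a C57BL/6 background, *Carm1* null embryos (*Carm1* KO/KO, homozygous for the tm1Mtb allele) were compared with wild-type embryos, and in the *Pax3* line, kept as a colony of mixed strain, *Pax3* null embryos (*Pax3* Sp2H/Sp2H, the Splotch allele) were compared with wild-type embryos of that colony. Both alleles were present in every cell of the mutants from conception, with no Cre and no treatment, and embryos came from intercrosses of heterozygotes. No label gives the litter or the sex of an embryo, so *P*-values measure the spread between the embryos of each fit. These are the embryos of 1 line or, for the difference between the lines, all 12. Strain, colony and line cannot be told apart, so that levels are compared only within a line.

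Fgf ligands are secreted proteins that bind, together with heparan sulfate, to receptor tyrosine kinases encoded by *Fgfr1* to *Fgfr4*. The receptors act through docking proteins, Ras and the MAP kinases, and the pathway induces its own inhibitors, the Sprouty, Spred and Dusp proteins, and transcription factors of the Etv group. In the embryo, Fgf ligands come from small signaling centers, such as the apical ridge of the limb bud, the isthmus between midbrain and hindbrain, the tail bud and the pharyngeal arches. By sequence, *Fgf8*, *Fgf17* and *Fgf18* form a subfamily. *Fgf7* and *Fgf10* signal mainly from mesenchyme to epithelium, *Fgf9* signals in the opposite direction in many organs, and *Fgf15* is the mouse counterpart of the hormone FGF19. *Fgf13* differs from the rest: its protein is a Fgf homologous factor, which stays inside the cell and binds voltage-gated sodium channels and microtubules. The list is therefore one of 8 ligands and 1 intracellular relative.

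All 9 members lie on GRCm38 (mm10) chromosomes as single protein-coding genes. *Fgf8* is at chr19:45736798-45742915, *Fgf9* at chr14:58070547-58112720, *Fgf13* at chrX:59062145-59568071 and *Fgf18* at chr11:33117430-33147400. *Fgf3* and *Fgf15* are near each other on chromosome 7, with *Fgf4* between them, 2930 bases past the end of *Fgf3* and 31287 bases before *Fgf15*. Values are sums over the exons of a gene, so that isoforms, among them those of the 4 start sites that RefSeq gives for *Fgf13*, were not separated. The 250 bases before the start site were available from RefSeq (GRCm38.p6) for 6 of the 9 members (not for *Fgf8*, *Fgf15* or *Fgf17*). They are shown for *Fgf18*, the member called for the difference between the lines, and for 2 members that fell in a line, *Fgf9* and *Fgf13*, the latter at its start site with the most GC boxes, with every GC box (GGGCGG on either strand) in capitals.
Fgf18, chr11:33147401-33147650, minus strand: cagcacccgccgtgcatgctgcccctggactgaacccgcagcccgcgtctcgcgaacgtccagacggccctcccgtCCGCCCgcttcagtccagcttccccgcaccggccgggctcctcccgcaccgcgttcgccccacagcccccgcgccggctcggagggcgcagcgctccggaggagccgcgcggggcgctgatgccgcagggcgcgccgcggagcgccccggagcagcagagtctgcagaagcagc
Fgf9, chr14:58072436-58072685, plus strand: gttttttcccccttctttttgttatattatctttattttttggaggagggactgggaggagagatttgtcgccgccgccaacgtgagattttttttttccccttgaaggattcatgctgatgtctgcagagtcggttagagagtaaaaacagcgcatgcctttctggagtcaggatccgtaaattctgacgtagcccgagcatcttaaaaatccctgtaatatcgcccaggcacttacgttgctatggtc
Fgf13, chrX:59134437-59134686, minus strand: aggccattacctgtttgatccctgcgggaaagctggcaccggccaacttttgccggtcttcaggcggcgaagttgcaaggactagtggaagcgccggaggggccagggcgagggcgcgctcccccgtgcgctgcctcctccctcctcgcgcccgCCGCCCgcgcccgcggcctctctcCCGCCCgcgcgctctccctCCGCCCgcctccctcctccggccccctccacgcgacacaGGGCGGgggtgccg
The *Fgf18* sequence was 77.2% G and C and the *Fgf13* sequence 74.4%, against a median of 52.4% over 32851 promoters, while the *Fgf9* sequence was 44.8% G and C. The *Fgf18* window held 1 GC box and the *Fgf13* window shown 4. The windows at the other *Fgf13* start sites were 74.8%, 45.6% and 40.4% G and C, with 3, 0 and 0 GC boxes. The *Fgf9* window held none. GC boxes were found in 32.7% of all windows of this length. The TATA box (TATAAA, on either strand, in 12.4% of all windows) matched in none of the 9 windows of the members.

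Library sizes ranged from 17183344 to 23518692 counts. Of the targeted genes, *Carm1* was at 69.3 to 76.2 CPM (counts relative to library size, scaled by TMM factors within a line) in *Carm1* KO/KO libraries and at 136.9 to 150.7 CPM in wild-type libraries of that line. *Pax3* was at 18.1 to 22.4 CPM in *Pax3* Sp2H/Sp2H libraries and at 25.0 to 30.9 CPM in wild-type libraries. The groups did not overlap for either gene in its own line, and reads from the parts of the transcripts that the alleles leave in place are counted with the rest. *Pax3* was also higher in *Carm1* KO/KO libraries, at 27.4 to 30.4 CPM against 20.5 to 24.2 CPM in wild types. Its log2 fold change there was 0.37 ± 0.08 (SE, adjusted *P* = 0.0010 in the edgeR test described below). *Carm1* did not pass that test in the *Pax3* line (log2 -0.07 ± 0.05, adjusted *P* = 0.38). Y-linked genes held 4447 counts or more in 4 libraries (wild-type replicate 3 of the *Carm1* line, and mutant replicate 3 and wild-type replicates 2 and 3 of the *Pax3* line) and 23 or fewer in the other 8, so that the sexes were not balanced between groups. The embryos were whole, so that fewer cells of a type and less RNA per cell cannot be told apart in any result below.

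The members were expressed at low to middling levels. Per kilobase of exon, *Fgf13* had the highest level in all 4 groups, between 6.62 ± 0.26 CPM per kb (SD, n = 3) in *Carm1* KO/KO embryos and 8.81 ± 0.42 in *Pax3* wild-type embryos. *Fgf3* had the lowest level in all 4 groups, 0.17 to 0.28 CPM per kb. The median over all genes tested lay between 5.88 and 6.07 CPM per kb, so that *Fgf13* was above it in every group, *Fgf18* only in *Carm1* wild-type embryos (6.62 ± 0.95 CPM per kb), and the other members below it in every group. In *Carm1* wild-type embryos the order was *Fgf13*, *Fgf18*, *Fgf15*, *Fgf10*, *Fgf9*, *Fgf17*, *Fgf7*, *Fgf8* and *Fgf3*, and *Fgf7* and *Fgf8* were the only neighbours whose libraries overlapped. In *Carm1* KO/KO embryos *Fgf15* (4.63 ± 0.51 CPM per kb) overlapped with *Fgf18* (4.10 ± 0.66), and *Fgf10*, *Fgf17*, *Fgf8* and *Fgf9* formed a run from 2.39 to 1.85 CPM per kb in which each overlapped with the next. In *Pax3* wild-type embryos *Fgf15* (5.56 ± 0.52 CPM per kb) overlapped with *Fgf18* (4.67 ± 0.33), and *Fgf9* (2.15 ± 0.14) with *Fgf17* (1.93 ± 0.16). In *Pax3* Sp2H/Sp2H embryos the first 3, *Fgf13*, *Fgf15* and *Fgf18*, overlapped in turn, as did *Fgf17*, *Fgf10*, *Fgf8* and *Fgf9*.

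**Figure D1:**
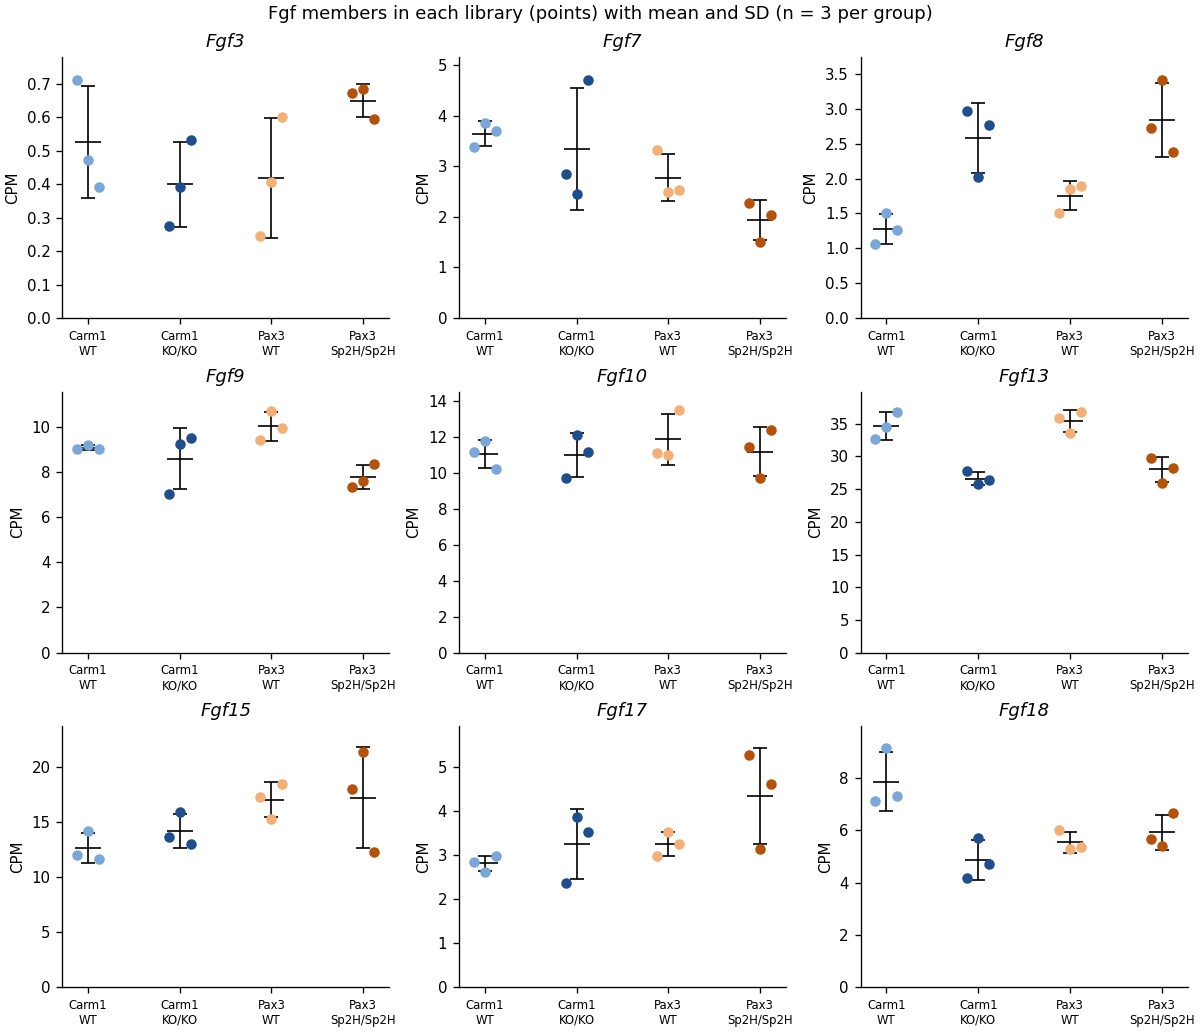
CPM of the 9 members in each library, with a point per library, and the mean and SD of each group of 3 (WT: wild type). The y axes start at 0 and differ between panels. The points of *Fgf8* and *Fgf13* do not overlap between mutant and wild type in either line, those of *Fgf18* do not overlap in the *Carm1* line, and those of *Fgf7* and *Fgf9* do not overlap in the *Pax3* line.

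In each line, mutants were compared with wild types by the quasi-likelihood test of edgeR over all genes that passed a filter on low counts. The Benjamini-Hochberg adjustment ran over all of those genes, and calls were made below 0.05. In the *Carm1* line, 3 of the 8 members tested passed it, *Fgf8* (higher) and *Fgf13* and *Fgf18* (lower), where 13.3% of 15811 genes did (5.49% higher and 7.83% lower). Of all calls in this line 41.2% were higher, and with offsets for exon length and GC content 59.0% of 3142 were. *Fgf3* had 5 to 12 counts per library and was not tested in this line. Of the 9 members tested in the *Pax3* line, 3 passed, *Fgf8* (higher) and *Fgf9* and *Fgf13* (lower), where 24.5% of 15724 genes did (14.0% higher and 10.5% lower). Mutant and wild-type libraries did not overlap for 3 of the 8 members tested in the *Carm1* line, against 30.0% of all genes tested, and for 4 of 9 in the *Pax3* line, against 39.6%. The median log2 fold change of the members tested was -0.05 in the *Carm1* line and 0.01 in the *Pax3* line, beside 0.0014 and -0.0026 over all genes tested. With 3 embryos a group, an exact permutation test of 1 gene by itself could reach no *P* lower than 0.1, and the tests of members below come from the fit across all genes.

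*Fgf8* encodes the ligand of the apical ridge, the isthmus, the tail bud and the pharyngeal region. In the *Carm1* line it was at 2.96, 2.02 and 2.77 CPM in the mutants and at 1.07, 1.505 and 1.27 CPM in the wild types. Every mutant was above every wild type. The fold change was 1.99, or 0.99 ± 0.27 on the log2 scale (SE, 95% interval 0.45 to 1.54, adjusted *P* = 0.011). *Pax3* embryos had *Fgf8* at 2.73, 3.41 and 2.38 CPM in the mutants and 1.51, 1.85 and 1.89 CPM in the wild types, again without overlap. The fold change was 1.61 (log2 0.69 ± 0.23, 95% interval 0.23 to 1.15, adjusted *P* = 0.026). These values rest on few reads, 36 to 54 counts per *Carm1* KO/KO library and 18 to 35 in the wild types of that line, and the spread within groups (coefficient of variation 11.9% to 19.4%) was 0.71 to 1.49 times the one that counting alone gives. The adjusted *P* in the *Carm1* line rose to 0.081 without KO/KO replicate 1, and was 0.033 with DESeq2. The paper, which also used DESeq2, lists *Fgf8* in this line at log2 0.99 with an FDR above its threshold. It reports fewer genes called in this line than the main fit (2106) or the DESeq2 run (1435) here. The reason was not tested. In situ hybridization in the paper showed no difference of *Fgf8* in the pharyngeal arches of *Carm1* mutants at an earlier stage. The adjusted *P* of the *Pax3* line was 0.065 with DESeq2, 0.057 and 0.15 without Sp2H/Sp2H replicates 1 and 2, 0.098 without wild-type replicate 1, and 0.33 with offsets for exon length and GC content, which lowered the log2 fold change to 0.34. The exons of *Fgf8* were 62.8% G and C.

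Markers of the tail bud, the isthmus and the limb ridge, places that make *Fgf8*, were measured in the same libraries. No list of markers was made for the pharyngeal region. For the counts of these markers, 5.49% of all genes passed and were higher in the *Carm1* line and 14.0% in the *Pax3* line. Of 12 tail bud and presomitic genes, 8 were tested in the *Carm1* line and 2 rose, *Nkx1-2* (log2 1.22 ± 0.33, adjusted *P* = 0.011), a homeobox gene of the caudal epiblast, and *Dll3* (log2 0.36 ± 0.08, adjusted *P* = 0.0021), a Notch ligand of presomitic mesoderm and of newborn neurons. *Nkx1-2* was at 1.54 to 1.62 CPM in the mutants and 0.59 to 0.78 CPM in the wild types, and its adjusted *P* was 0.053 without wild-type replicate 2. The summed level of this list was 38.5 to 41.3 CPM in *Carm1* KO/KO libraries and 32.2 to 33.2 CPM in wild types. That sum in the *Pax3* line was 42.6 to 53.4 CPM in mutants and 37.2 to 46.6 CPM in wild types, and 1 of 7 genes tested rose, *Cyp26a1* (log2 0.49 ± 0.17, adjusted *P* = 0.034), an enzyme that degrades retinoic acid. That call held in 6 of 15 alternatives and was lost without each of 5 libraries in turn (all but wild-type replicate 2) and with DESeq2 (0.082). *Msgn1* and *Cdx4*, which define presomitic mesoderm and the tail bud, were at 0.0604 CPM or less in the mean of every group.

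Of 9 isthmus genes, *Cnpy1*, a regulator of Fgf receptors, rose in the *Carm1* line (log2 0.61 ± 0.16, adjusted *P* = 0.0085, 0.053 without KO/KO replicate 2). It was 1 of 4 there with an unadjusted *P* below 0.05, and of the other 3 *Wnt1* was higher (log2 0.64 ± 0.24, adjusted *P* = 0.081) and *En1* (log2 -0.29 ± 0.11, adjusted *P* = 0.086) and *Pax2* (log2 -0.19 ± 0.09, adjusted *P* = 0.16) were lower in the mutants, without passing. From the same list *En2* (log2 0.67 ± 0.10, adjusted *P* = 3.8e-05) and *Gbx2* (log2 0.35 ± 0.10, adjusted *P* = 0.0091), homeobox genes of the midbrain-hindbrain region, rose in the *Pax3* line. The call of *Gbx2* was lost without Sp2H/Sp2H replicate 3, without wild-type replicate 1, and with the length and GC offsets (0.40). The summed isthmus level was 88.7 to 95.5 CPM against 87.5 to 94.5 CPM in wild types in the *Carm1* line and 109.9 to 121.8 against 99.3 to 101.2 CPM in the *Pax3* line. Of 7 limb ridge genes, none passed the edgeR test in either line, with 3 at an unadjusted *P* below 0.05 in the *Carm1* line and 1 in the *Pax3* line, and DESeq2 called none. Their summed level was 69.1 to 76.6 CPM against 72.2 to 73.1 CPM in the *Carm1* line and 94.4 to 95.5 against 89.2 to 90.9 CPM in the *Pax3* line. The part of any of these marker genes in the *Fgf8* result was not tested.

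*Fgf17* and *Fgf18* belong to the same subfamily as *Fgf8*. *Fgf17*, expressed at the isthmus and in the tail bud, was at 2.36, 3.86 and 3.54 CPM in *Carm1* KO/KO embryos and at 2.85, 2.62 and 2.97 CPM in wild types (log2 0.21 ± 0.21, 95% interval -0.22 to 0.64, adjusted *P* = 0.59). Its values in the *Pax3* line were 5.27, 3.14 and 4.62 CPM in mutants and 2.98, 3.53 and 3.26 CPM in wild types (log2 0.42 ± 0.19, 95% interval 0.03 to 0.81, adjusted *P* = 0.10). Sp2H/Sp2H replicate 2 lay within the wild-type range, and without it the log2 fold change was 0.61 with adjusted *P* = 0.027. *Fgf17* passed in no other of the 15 alternatives in that line. The log2 fold change was 0.26 (adjusted *P* = 0.44) without Sp2H/Sp2H replicate 1. It was 0.16 (adjusted *P* = 0.61) with offsets for exon length and GC content, and with DESeq2 the adjusted *P* was 0.20.

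*Fgf18*, a ligand known for roles in cartilage, bone and lung, went down in the *Carm1* line. It was at 4.17, 5.71 and 4.71 CPM in the mutants and at 7.12, 9.16 and 7.31 CPM in the wild types. Every mutant was below every wild type, and the wild-type level was 1.63 times that of the mutants (log2 -0.70 ± 0.15, 95% interval -1.01 to -0.39, adjusted *P* = 0.0015). The call held in all 15 alternatives. *Fgf18* in the *Pax3* line was at 5.68, 5.42 and 6.66 CPM in mutants and at 6.00, 5.27 and 5.37 CPM in wild types, which overlapped (log2 0.09 ± 0.14, 95% interval -0.20 to 0.39, adjusted *P* = 0.68). The difference of the 2 effects was tested as an interaction in a fit of all 12 libraries. It passed the threshold for *Fgf18* (the *Carm1* effect minus the *Pax3* effect was -0.78 ± 0.21 on the log2 scale, 95% interval -1.21 to -0.36, adjusted *P* = 0.0071) and for no other of the 9 members, 1 of 9 where 19.1% of 16292 genes passed. With offsets for exon length and GC content the *Fgf18* difference was -0.50 (adjusted *P* = 0.098) and no longer passed, and the log2 fold change of *Fgf18* was -0.19 in the *Pax3* line. For the others the adjusted *P* of the difference was between 0.24 (*Fgf9*) and 0.87 (*Fgf13*). The interval of the difference for *Fgf8* was -0.38 to 1.003, so that its larger fold change in the *Carm1* line was not distinguished from that in the *Pax3* line.

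**Figure D2:**
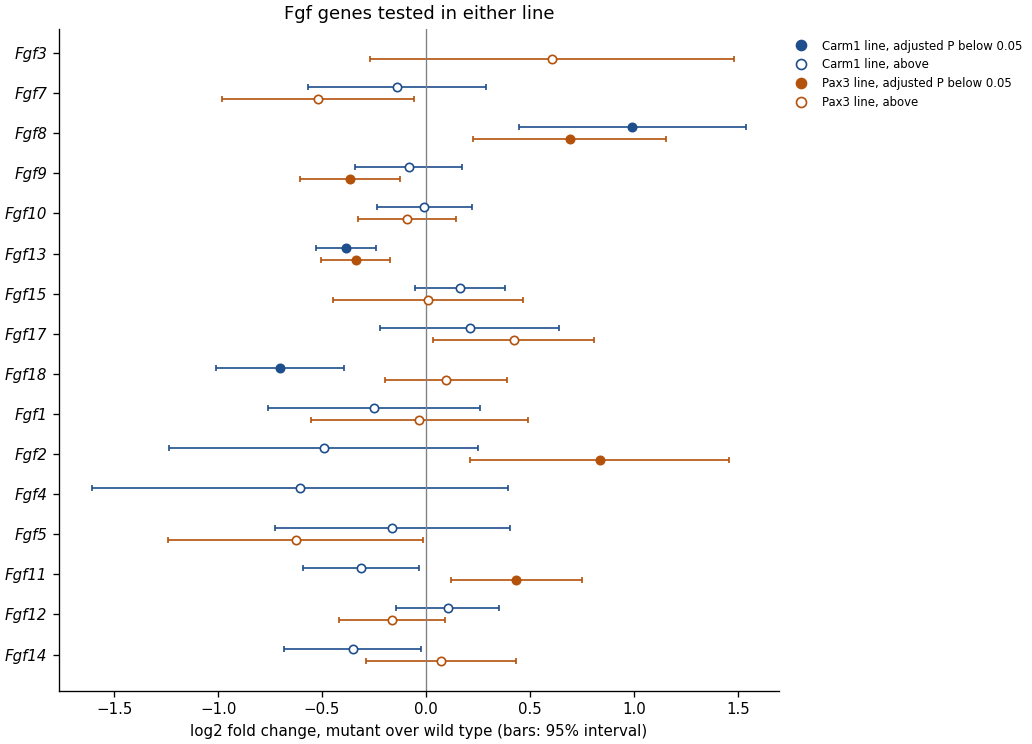
Log2 fold change of mutant over wild type with its 95% interval (x axis) for the 9 members and the 7 other Fgf genes that were tested in a line (y axis), in the *Carm1* line (blue) and the *Pax3* line (orange). Filled points passed an adjusted *P* of 0.05. *Fgf8* is right of 0 and *Fgf13* left of 0 in both lines, and the interval of *Fgf18* is left of 0 in the *Carm1* line and spans 0 in the *Pax3* line.

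*Fgf13* had the highest level and the narrowest intervals. It was at 27.8, 25.7 and 26.3 CPM in *Carm1* KO/KO embryos and at 32.7, 34.5 and 36.9 CPM in wild types. Its level fell by 0.38 ± 0.07 on the log2 scale (95% interval -0.53 to -0.24, adjusted *P* = 0.00023), to 0.767 times the wild-type level. The *Pax3* line had it at 29.7, 25.996 and 28.3 CPM in mutants and at 35.9, 33.5 and 36.8 CPM in wild types. The groups were again apart and the level fell to 0.791 times that of wild types (log2 -0.34 ± 0.08, 95% interval -0.51 to -0.17, adjusted *P* = 0.0033). The interaction was -0.03 ± 0.11 with an interval of -0.25 to 0.18, so that a difference of the 2 effects larger than 0.25 was outside the interval. *Fgf13* is X-linked, and its adjusted *P* with a term for libraries holding Y-linked counts stayed below 0.05 in both lines, as it did in all 15 alternatives in each.

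*Fgf9*, a ligand made by epithelia and by muscle, was near the wild-type level in *Carm1* KO/KO embryos, at 7.02, 9.24 and 9.49 CPM against 9.01, 9.20 and 9.02 CPM (log2 -0.08 ± 0.13, 95% interval -0.34 to 0.17, adjusted *P* = 0.73). In the *Pax3* line it was at 7.33, 7.60 and 8.36 CPM in mutants and at 9.42, 10.7 and 9.92 CPM in wild types. All mutants were below all wild types and the level fell to 0.777 times that of wild types (log2 -0.36 ± 0.12, 95% interval -0.60 to -0.12, adjusted *P* = 0.024). The call held in 8 of 15 alternatives. It was lost with DESeq2 (0.053), with a term for Y-linked counts (0.058), with the length and GC offsets (0.12), without Sp2H/Sp2H replicates 1 and 2 (0.11 and 0.074) and without wild-type replicates 2 and 3 (0.074 and 0.051).

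Skeletal muscle markers were measured beside *Fgf9*. Of 11 muscle genes tested in the *Pax3* line 9 fell and none rose, and their summed level was 197 to 225 CPM in mutants and 369 to 428 CPM in wild types. Of those in the *Carm1* line, where *Fgf9* did not pass, 8 of 11 fell and the sum was 437 to 449 CPM in mutants and 619 to 684 CPM in wild types. Among all genes tested, 10.5% passed and were lower in the *Pax3* line and 7.83% in the *Carm1* line. The part of muscle in the *Fgf9* result was not tested.

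*Fgf7* and *Fgf10* did not pass the test in either line, and *Fgf3*, not tested in the *Carm1* line, did not pass in the *Pax3* line. *Fgf10*, the ligand required for limb and lung buds, was at 9.71 to 12.1 CPM in *Carm1* KO/KO embryos and 10.2 to 11.7 CPM in wild types, with a log2 fold change of -0.008 ± 0.11 (95% interval -0.24 to 0.22). In the *Pax3* line it was at 9.70 to 12.4 CPM in mutants and 11.003 to 13.5 CPM in wild types (log2 -0.09 ± 0.12, 95% interval -0.33 to 0.15). A change of *Fgf10* larger than 0.33 in size was outside both intervals. *Fgf7*, a ligand for epithelial receptors, was at 2.85, 2.46 and 4.71 CPM in *Carm1* KO/KO embryos and at 3.38, 3.87 and 3.71 CPM in wild types (log2 -0.14 ± 0.21). In the *Pax3* line it was at 2.28, 1.502 and 2.04 CPM in mutants and at 3.32, 2.49 and 2.53 CPM in wild types. These did not overlap, but the difference (log2 -0.52 ± 0.23) did not pass after adjustment (adjusted *P* = 0.094). *Fgf3*, a ligand of the inner ear and tail, had 14 or 15 counts in each *Pax3* Sp2H/Sp2H library and 5, 7 and 14 in the wild types (log2 0.60 ± 0.43, 95% interval -0.27 to 1.48, adjusted *P* = 0.33), and a change was not detected at these counts.

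*Fgf15*, made in the embryonic brain and later in the gut, did not pass in either line. It was at 13.6, 15.9 and 12.96 CPM in *Carm1* KO/KO embryos and at 12.04, 14.1 and 11.6 CPM in wild types (log2 0.16 ± 0.11, adjusted *P* = 0.34). In the *Pax3* line it was at 18.0, 21.4 and 12.3 CPM in mutants and at 17.3, 15.3 and 18.4 CPM in wild types (log2 0.01 ± 0.19, 95% interval -0.45 to 0.46). The mutants of that line lay on both sides of the wild types, and their coefficient of variation of 26.7% was 5.26 times the one that counting gives, the highest such ratio for any member. An annotated antisense gene, *Gm26793*, shares 761 bases, or 24.9%, of the exons of *Fgf15*, and another, *Gm16263*, shares 123 bases (2.67%) with *Fgf10*. The strand setting of the counting is not stated, so reads of these pairs may not have been separated.

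By the Pearson correlation of log2 CPM centered on the mean of each line, over 12 libraries and 15445 genes, the genes most like *Fgf8* were *Parl* (r = 0.969), *Tubg1* (0.940) and *Lhx3* (0.938). *Lhx3*, a homeobox gene of motor neurons and the pituitary, was at a mean of 4.49 CPM in mutants against 2.82 in wild types of the *Carm1* line, and at 6.15 against 4.28 in the *Pax3* line. *Fgf13* was most like *Ccng1* (r = 0.964), *Vgll3* (0.962) and *Pak7* (0.960). *Fgf18* was most like *Emp1* (r = 0.981), *Krt17* (0.943) and *Slc2a2* (0.936). *Krt17* is a keratin of the periderm and hair placodes, and was at 2.84 CPM in *Carm1* KO/KO embryos against 7.23 CPM in wild types, and at 4.13 against 3.15 CPM in the *Pax3* line. *Fgf9* was most like *Chrnd* (r = 0.930), a subunit of the muscle acetylcholine receptor, *Fto* (0.918) and *Scfd2* (0.902). These correlations describe the same 12 libraries that were tested above and hold the differences between mutants and wild types.

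**Figure D3:**
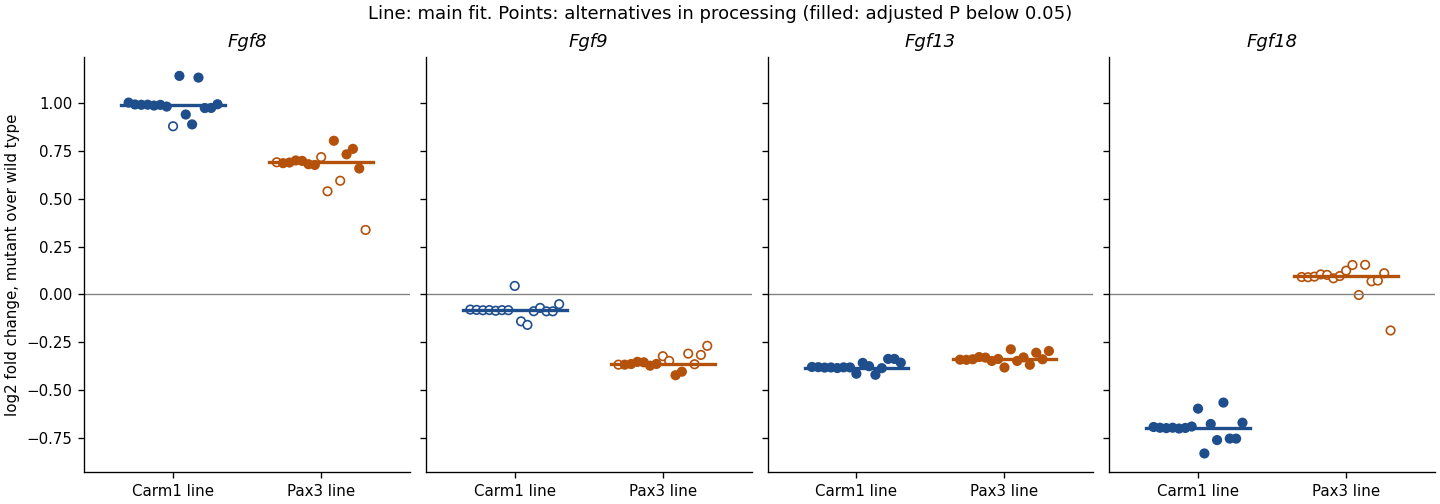
Log2 fold change (y axis) of the 4 members that passed the test in a line. The horizontal bar is the main value and each point an alternative in normalization, filter, tool, covariate or libraries left out (filled where adjusted *P* was below 0.05). All points of *Fgf13* are filled in both lines, 14 of 15 for *Fgf8* in the *Carm1* line, and 10 of 15 for *Fgf8* and 8 of 15 for *Fgf9* in the *Pax3* line.

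Of the 13 Fgf genes outside the list, 7 were tested in the *Carm1* line and 6 in the *Pax3* line. None passed in the *Carm1* line, against 13.3% of all genes, with 2 at an unadjusted *P* below 0.05, and DESeq2 called none. In the *Pax3* line 2 passed, both higher, where 24.5% of all genes passed. *Fgf2*, a ligand without a secretion signal, was at 1.97, 1.32 and 1.36 CPM in mutants of that line and at 0.78, 0.75 and 1.03 CPM in wild types (log2 0.84 ± 0.30, adjusted *P* = 0.045). *Fgf11*, another intracellular homologous factor, was at 6.53, 6.01 and 5.05 CPM in mutants and at 4.54, 4.34 and 4.12 CPM in wild types (log2 0.43 ± 0.15, adjusted *P* = 0.038). Among the intracellular factors *Fgf13* fell in the *Pax3* line while *Fgf11* rose, and *Fgf12* (log2 -0.16 ± 0.13) and *Fgf14* (log2 0.07 ± 0.18) did not pass. Neither *Fgf2* nor *Fgf11* passed with DESeq2 (0.11 and 0.091), and the call of *Fgf2* was lost without each library in turn except wild-type replicate 3 and that of *Fgf11* without each except Sp2H/Sp2H replicate 3. *Fgf2* shares 640 bases of exon with *Nudt6* on the opposite strand. Per kilobase, *Fgf11* had the highest level of these 13 genes in all 4 groups, 1.42 to 2.45 CPM per kb.

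*Fgfr1*, *Fgfr2* and *Fgfr3*, at 10.5 to 25.97 CPM per kb in the group means, were above every member, while *Fgfr4*, at 2.04 to 4.83 CPM per kb, lay within their range. *Fgfr1* had the highest level per kilobase of the 7 receptor and co-receptor genes, 22.4 ± 0.77 to 25.97 ± 0.55 CPM per kb, and did not pass in either line (log2 -0.03 ± 0.04 and 0.05 ± 0.05). *Fgfr3*, a receptor of cartilage and neural progenitors, rose in both lines, from 81.0 ± 5.5 to 96.8 ± 2.4 CPM in the *Carm1* line (log2 0.26 ± 0.05, adjusted *P* = 0.00056) and from 74.9 ± 6.8 to 101 ± 4.8 CPM in the *Pax3* line (log2 0.43 ± 0.06, adjusted *P* = 1.4e-05). *Fgfr4*, the receptor of muscle progenitors and liver, fell in both lines, from 17.1 ± 0.96 to 13.9 ± 0.99 CPM (log2 -0.29 ± 0.09, adjusted *P* = 0.031) and from 11.8 ± 0.61 to 7.21 ± 1.3 CPM (log2 -0.70 ± 0.13, adjusted *P* = 0.00015). The calls of *Fgfr3* held in all 15 alternatives in each line and that of *Fgfr4* in the *Pax3* line. *Fgfr4* in the *Carm1* line lost its call with DESeq2 (0.11), in the fit of all 12 libraries, without KO/KO replicates 2 and 3 and without wild-type replicate 2. Muscle markers fell in both lines as given above, and hepatocyte markers fell for 10 of 12 genes in the *Carm1* line (sum 940 to 1134 CPM in mutants and 1716 to 2078 CPM in wild types), while in the *Pax3* line 3 fell and 1 rose. Neural progenitor markers rose for 8 of 12 genes and fell for 1 in the *Carm1* line (sum 1188 to 1244 CPM against 933 to 980 CPM) and rose for 6 of 12 in the *Pax3* line (1094 to 1212 CPM against 1000 to 1086 CPM). Of these 6, *Sox1* and *Sox2* held their calls in all 15 alternatives. *Fabp7*, *Hes5*, *Neurog2* and *Sox3* lost theirs with the length and GC offsets. Among all genes tested, 5.49% rose and 7.83% fell in the *Carm1* line, and 14.0% rose and 10.5% fell in the *Pax3* line. The part of these cell types in the receptor results was not tested.

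**Figure D4:**
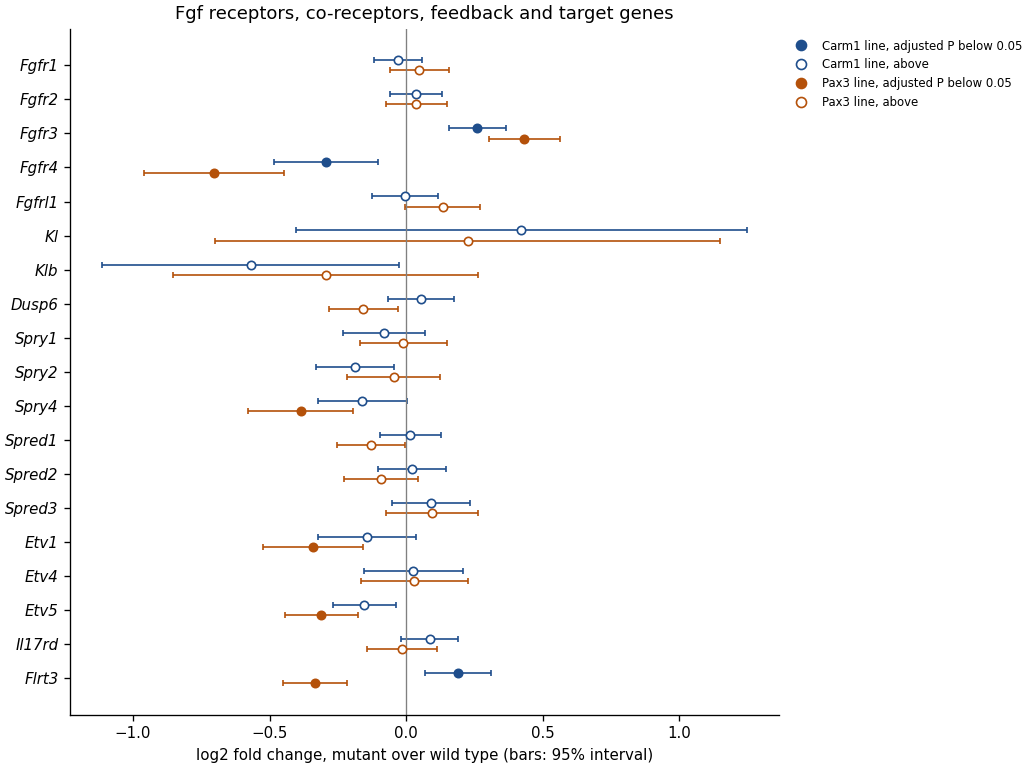
Log2 fold change of mutant over wild type with its 95% interval (x axis) for receptors, co-receptors, feedback and target genes (y axis) in both lines, filled where adjusted *P* was below 0.05. *Fgfr3* is right of 0 and *Fgfr4* left of 0 in both lines, and *Flrt3* is right of 0 in the *Carm1* line and left of 0 in the *Pax3* line.

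Of 12 feedback and target genes tested, 1 passed in the *Carm1* line and rose, where 13.3% of all genes passed (5.49% higher). In the *Pax3* line 4 passed, all lower, where 24.5% of all genes passed (10.5% lower). *Dusp6*, a phosphatase that inactivates ERK and the highest of this list per kilobase (15.7 to 23.9 CPM per kb), did not pass in the *Carm1* line (log2 0.05 ± 0.06) or the *Pax3* line (log2 -0.16 ± 0.06, adjusted *P* = 0.064). In the *Pax3* line *Spry4* (log2 -0.39 ± 0.09, adjusted *P* = 0.0034), an inhibitor of Ras signaling, *Etv5* (log2 -0.31 ± 0.06, adjusted *P* = 0.00089) and *Etv1* (log2 -0.34 ± 0.09, adjusted *P* = 0.0063), Ets transcription factors, and *Flrt3* (log2 -0.33 ± 0.06, adjusted *P* = 0.00011), a membrane protein that binds Fgf receptors, fell. The calls of *Spry4*, *Etv5* and *Flrt3* held in all 15 alternatives, and *Etv1* lost its call without Sp2H/Sp2H replicate 3 and with the length and GC offsets. *Flrt3* rose in the *Carm1* line, from 58.9 ± 3.4 to 67.1 ± 5.6 CPM (log2 0.19 ± 0.06, adjusted *P* = 0.029), and lost its call with DESeq2 (0.081), without KO/KO replicate 2 and without wild-type replicates 1 and 2. Neural crest markers fell for 5 of 10 genes in the *Pax3* line (sum 233 to 236 CPM against 306 to 329 CPM), and in the *Carm1* line 1 rose and 1 fell. Their part in the result was not tested.

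Of 13 genes of the Ras and MAP kinase relay tested, none passed in the *Carm1* line (2 at an unadjusted *P* below 0.05, none with DESeq2), against 13.3% of all genes. In the *Pax3* line 1 rose and 2 fell, where 24.5% of all genes passed. The one that rose was *Map2k2* (log2 0.33 ± 0.05, adjusted *P* = 7.3e-05), a kinase of ERK, with a call that held in all 15 alternatives. *Frs2*, the docking protein of the receptors, fell by 0.21 ± 0.07 and *Sos1*, the Ras exchange factor, by 0.19 ± 0.06 on the log2 scale (adjusted *P* = 0.023 and 0.016). Both lost their calls with the length and GC offsets and without Sp2H/Sp2H replicate 3. *Frs2* also lost its call without Sp2H/Sp2H replicates 1 and 2 and wild-type replicate 1, and *Sos1* without wild-type replicate 3. *Grb2*, an adaptor protein and the highest of the relay per kilobase (38.9 to 42.6 CPM per kb), did not pass in either line.

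Of 12 genes that build or edit heparan sulfate, none passed in the *Carm1* line (2 at an unadjusted *P* below 0.05, none with DESeq2) and 1 in the *Pax3* line, *Glce*, the glucuronic acid epimerase (log2 -0.22 ± 0.06, adjusted *P* = 0.011), which lost its call without Sp2H/Sp2H replicates 1 and 2 and with the offsets. *Sulf2*, a sulfatase of the cell surface, had the highest level of this list, 68.0 to 74.7 CPM per kb, and did not pass. Over the 5 lists of the pathway, 3 of 51 genes tested passed in the *Carm1* line, against 13.3% of all genes, and 12 of 50 in the *Pax3* line, against 24.5%. Of these, 1 call in the *Carm1* line and 6 in the *Pax3* line held in all 15 alternatives. Trophoblast markers, which would mark placenta, summed to 3.17 CPM or less in every library.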

How the data were processed

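RNA from 12 whole E12.5 embryos was poly(A) selected and sequenced in pairs by a commercial provider. The authors aligned the reads to mm10 with STAR and counted them per gene with featureCounts, and deposited raw counts of reads per gene for each embryo, neither normalized nor pooled. Tool versions, strandedness and the handling of reads with several alignments are not given in the sources used here. Both tables list 23420 genes, and no column was left unmapped to a sample. Groups were taken from the sample labels.

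The lines were fitted separately in edgeR 4.0.16 under R 4.3.3: the filter filterByExpr (minimum count 10), TMM factors, robust quasi-likelihood test, Benjamini-Hochberg adjustment over all genes tested, threshold 0.05. The difference between the lines was an interaction in a fit of all 12 libraries. CPM and intervals (95%) are from these fits, and intervals cover the spread between embryos. Lengths and coordinates are from GENCODE vM21 (GRCm38), in which 21777 symbols were found directly, 1275 by an older name and 368 not at all. The fits were tested on simulated counts with 200 changed genes. Alternatives were DESeq2 (version 1.42.0), RLE and upper-quartile factors, no filter, at least 10 counts in every library, a joint fit, a replicate block, each library left out, a term for libraries with 100 or more Y-linked counts, and offsets for exon length and GC content (splines, 5 degrees of freedom). For the difference, upper-quartile factors, the Y-linked term and the offsets were added after seeing the data, and the stricter filter was not run.

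The 9 members and the lists were chosen with earlier results of these data known, and support nothing by themselves. Named were all members, every pathway gene that passed in a line, the highest gene per kilobase of each list, and for each member that passed the 3 genes with the highest correlation of line-centered log2 CPM (prior count 2) among genes averaging 0.5 CPM or more. Other marker genes given with values include all those that passed in the tail bud and isthmus lists (*Nkx1-2*, *Dll3*, *Cyp26a1*, *Cnpy1*, *En2*, *Gbx2*). Also given are genes that did not pass. They are *Wnt1*, *En1* and *Pax2*, for an unadjusted *P* below 0.05 in the edgeR test, and *Msgn1* and *Cdx4*, for their low level. Some genes of the Ras and MAP kinase relay are not reported here and are left out of its counts.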

Additional observations from a re-analysis of the deposited data

Results flagged for a closer look

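Of 60 members and pathway genes tested, 9 passed (15%) in the interaction test of edgeR over 12 libraries, in which the effect in the *Carm1* line is set against that in the *Pax3* line, where 19.1% of all 16292 genes passed. The difference is given as the *Carm1* effect minus the *Pax3* effect on the log2 scale. It was -0.784 for *Fgf18* (adjusted *P* = 0.0071), which fell in the *Carm1* line, and the call held in 18 of 19 alternatives. It was lost with offsets for exon length and GC content (-0.50, adjusted *P* = 0.098).

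Among other Fgf genes it was -1.32 for *Fgf2* (adjusted *P* = 0.045) and -0.737 for *Fgf11* (adjusted *P* = 0.0074). *Fgf2* and *Fgf11* rose in the *Pax3* line and were at 0.759 ± 0.21 and 6.01 ± 0.62 CPM (SD, n = 3) in *Carm1* KO/KO embryos against 1.05 ± 0.20 and 7.45 ± 0.30 CPM in wild types. The call of *Fgf2* held in 7 of 18 alternatives, and DESeq2 gave it no adjusted *P*. It was lost with no filter, with a replicate block within each line, with a term for Y-linked counts, and without KO/KO replicates 1 and 2, wild-type replicates 2 and 3 of the *Carm1* line, Sp2H/Sp2H replicates 1 and 3, or wild-type replicates 1 and 2 of the *Pax3* line. That of *Fgf11* held in all 19.

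The difference was 0.533 for *Flrt3* (adjusted *P* = 2.9e-05), which rose in the *Carm1* line and fell in the *Pax3* line. It was 0.248 for *Frs2*, 0.258 for *Sos1* and -0.265 for *Map2k2* in the relay, and 0.244 for *Ndst1* and 0.298 for *Glce* in heparan sulfate synthesis (adjusted *P* between 0.0094 and 0.048). *Flrt3* and *Glce* held in all 19 alternatives. *Map2k2* held in 18, losing its call with the offsets (adjusted *P* = 0.13), and *Sos1* in 17, losing it with the offsets (0.17) and without KO/KO replicate 2 (0.067). *Ndst1* held in 16 and *Frs2* in 7.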

How the results depend on the processing

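Over pairs of a member and an alternative, log2 fold changes kept their direction and their side of the threshold in 114 of 120 in the *Carm1* line. They did so in 110 of 133 in the *Pax3* line and 161 of 170 for the difference between the lines. These pairs include members that did not pass and stayed so. The calls of *Fgf13* in both lines and of *Fgf18* in the *Carm1* line held in every alternative run for them. That of *Fgf8* held in 14 of 15 in the *Carm1* line. Those of *Fgf8* and *Fgf9* in the *Pax3* line held in 10 and 8 of 15. The number of members called in the *Pax3* line went from 3 to 1 with DESeq2 and to 1 with length and GC offsets, and lay between 1 and 3 when a library was left out. In the *Carm1* line it lay between 2 and 3, and for the difference it stayed at 1. The number for the difference went from 1 to 0 with the offsets, an alternative added after seeing the data, as were upper-quartile factors and a term for Y-linked counts for the difference. The number of pathway genes called in the *Carm1* line went from 3 to 1 with DESeq2, 5 with a term for Y-linked counts and 8 with the offsets. With a library left out it lay between 1 and 5 in the *Carm1* line and between 8 and 13 in the *Pax3* line, and the number of genes called between 1224 and 2290 and between 2454 and 4103. The causes were not tested. Fits without a library had fewer samples, and the numbers of genes called in them lay on both sides of those of the main fits (2106 and 3851).

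Signs turned only in comparisons in which the member did not pass in the main fit. *Fgf10* in the *Carm1* line was 0.0224 with the offsets, *Fgf15* in the *Pax3* line was -0.00048 in the fit of all libraries, -0.0165 with the replicate block, -0.13 with the term for Y-linked counts and -0.0166 with the offsets, and *Fgf18* in the *Pax3* line was -0.19 with the offsets. Leaving out a library gave -0.46 to 0.0392 for *Fgf7*, -0.16 to 0.0443 for *Fgf9* and -0.0835 to 0.0754 for *Fgf10* in the *Carm1* line, and -0.18 to 0.0211 for *Fgf10*, -0.18 to 0.20 for *Fgf15* and -0.00333 to 0.15 for *Fgf18* in the *Pax3* line. For the difference between the lines it gave -0.0129 to 0.18 for *Fgf10*, -0.0851 to 0.0118 for *Fgf13* and -0.0288 to 0.35 for *Fgf15*, and it was -0.0219 for *Fgf10* and 0.0137 for *Fgf13* with the term for Y-linked counts and 0.0537 for *Fgf17* with the offsets. DESeq2 gave no adjusted *P* for *Fgf3* in the *Pax3* line.

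The replicate numbers share no stated litter or batch. Deviations from the group means of same-numbered libraries correlated at -0.041, 0.00082 and -0.042 in the *Carm1* line, where no mutant matched its own number best. The correlations were 0.133, -0.0916 and 0.227 in the *Pax3* line, where replicates 1 and 3 matched their own number best. Same-numbered libraries of those replicates were also alike in Y-linked counts, so that the check cannot tell pairing from sex there. With a replicate block, 1787 and 4177 genes were called in place of 2106 and 3851, 3 members were called in each line, and no call of a member changed. Depth limits *Fgf3* and *Fgf8* most, with 5 to 15 and 18 to 75 counts per library.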

Other observations

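Among the remaining Fgf genes, *Fgf1* held 28 to 55 counts per library and did not pass in the *Carm1* line (log2 -0.25 ± 0.25) or the *Pax3* line (log2 -0.03 ± 0.25). *Fgf6*, *Fgf16*, *Fgf20*, *Fgf21*, *Fgf22* and *Fgf23* held at most 19 counts in any library and were not tested. *Fgf21*, a hormone of the liver, held 3 counts or fewer in each *Carm1* library and 0 in all 6 *Pax3* libraries. *Fgf4*, which lies between *Fgf3* and *Fgf15*, held 4 to 19 counts and was tested in the *Carm1* line alone (log2 -0.61 ± 0.49, adjusted *P* = 0.47). *Fgf5* was at 1.43, 1.002 and 1.40 CPM in *Pax3* Sp2H/Sp2H embryos and at 1.07, 2.78 and 2.15 CPM in wild types (log2 -0.63 ± 0.30, adjusted *P* = 0.13). Of the co-receptors for hormone-like Fgf proteins, *Klb* was at 1.47 ± 0.20 CPM in the 3 *Carm1* mutants and 2.18 ± 0.33 CPM in their wild types (log2 -0.57 ± 0.27, adjusted *P* = 0.17), and *Kl* was at 0.77 ± 0.09 and 0.57 ± 0.10 CPM (log2 0.42 ± 0.41, adjusted *P* = 0.56).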
